A study of Homo sapiens with 6 samples.

Results

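The genes described here are BRAF, MAP2K1, DUSP6, SPRY2, SPRY4, SPRED1, PHLDA1, ETV5 and CCND1, which are 9 of the 11593 gene symbols measured. They were chosen by name, with earlier results of these data known, as kinases of the RAS-RAF-MEK-ERK cascade and as genes that ERK controls. Every one had a value in all 6 libraries. The cells were SK-Hep1, an established human line labelled as hepatocellular carcinoma, and the labels name no treatment. In 3 libraries the labels give a probe set tiling SNHG10, a long noncoding RNA, and in the 3 control libraries a probe set against LacZ, a bacterial gene. The series sought messenger RNAs retrieved together with SNHG10 by ChIRP, in which biotinylated DNA probes capture a target RNA with its crosslinked partners. The labels' extraction protocol describes total RNA and names no capture step, so the RNA fraction behind the values is not settled by the sources used here. Nothing in the labels says whether replicates were separate cultures, and the p-values therefore cover the spread among these libraries alone, whether technical or biological.

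In this cascade RAS recruits RAF kinases such as BRAF, RAF phosphorylates MEK (MAP2K1 and MAP2K2), and MEK phosphorylates ERK kinases such as MAPK3. ERK then raises transcription of growth genes such as CCND1 and of its own inhibitors, among them the ERK phosphatase DUSP6 and the Sprouty and SPRED proteins. SK-Hep1 is known to carry an activating BRAF mutation, and in cells of that kind these output genes are commonly read as a measure of ERK activity. The values do not separate alleles of BRAF.

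Values are FPKM, fragments counted per length of transcript and per size of library, summed over the listed transcripts of a gene. A library's FPKM total was 268794 to 272909 under SNHG10 probes, 271354 to 277118 under LacZ probes, and the read depth is unknown. Genes listed at 0 numbered 850 to 897 with SNHG10 probes and 748 to 842 with LacZ probes, which separates the probe sets, and the part of this in any result below was not tested. Hepatocyte markers were near 0: CPS1 and SERPINA1 reached at most 1.53 and 1.24 FPKM, and the other 8 of 10 markers, ALB and APOA1 among them, were not analysed here. Of 8 endothelial markers 3 were measured, and their summed level was 42.4 to 51.2 FPKM with SNHG10 probes and 46.4 to 61.8 with LacZ probes. The 2 of 5 leukocyte markers measured summed to 36.8 to 56.1 and 43.1 to 56.5 FPKM, the 4 of 6 fibroblast markers to 36.8 to 55.8 and 47.5 to 63.2, and the 2 of 3 biliary markers to 414 to 446 and 415 to 470, so each of these sums overlapped between the probe sets. Of the defining endothelial markers PECAM1, CDH5, VWF, KDR and TEK, no value was analysed here.

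None of the 9 genes was called higher or lower with SNHG10 probes, and 0% of all 10304 genes tested were called. The test was limma on log2(FPKM + 1) with Benjamini-Hochberg adjustment over all genes and a threshold of 0.05, and adjusted p for the 9 ran from 0.885 to 0.992. At an unadjusted p under 0.05 there was 1 of the 9, DUSP6, against 5.42% of all genes tested (558). Limma without trend and limma with robust eBayes also called 0 genes. Groups did not overlap in 1 of the 9, again DUSP6, against 11.4% of all genes (7.21% lower and 4.22% higher). With median-ratio scaling, chosen for this after seeing the data, DUSP6 was still apart, at 14.3 to 18.7 against 19.1 to 27.8, and 5.34% of all genes lay lower and 5.69% higher. The log2 differences, SNHG10 probes minus LacZ probes, were positive in 4 genes and negative in 5, with a median of -0.02 beside -0.05 over all genes tested. With median-ratio scaling 5 were positive and 4 negative.

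**Figure D1:**
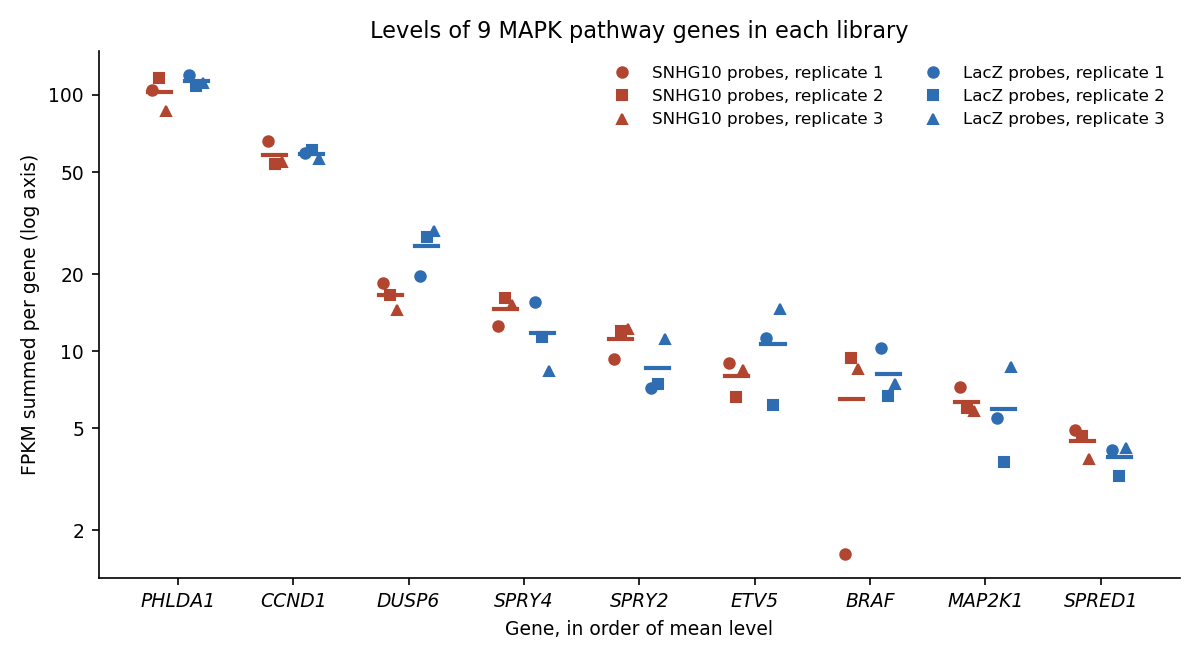
FPKM of the 9 genes (log axis) in each library, in order of mean level, with SNHG10 probes in red, LacZ probes in blue, a marker shape for each replicate number and bars at the group means (n = 3 each). DUSP6 is the one gene whose red points all lie under its blue points, and BRAF has 1 red point at 1.62 FPKM far under its other 5.

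The genes spanned a wide range of levels. Most of the 9 are ERK output genes, and such genes lay at both ends, PHLDA1 at the top and SPRED1 at the bottom. PHLDA1 averaged 107.9 FPKM over the 6 libraries, above 53.6 to 66.2 FPKM for CCND1, and neither range touched that of another gene. DUSP6 followed at a mean of 21.1 FPKM, then SPRY4 (13.2), SPRY2 (9.89), ETV5 (9.34), BRAF (7.31), MAP2K1 (6.15) and SPRED1 (4.16). From DUSP6 down, the ranges of neighbouring genes overlapped, so the order of neighbours was not resolved beyond the spread of the libraries. DUSP6, at 14.5 FPKM or more, still lay wholly above SPRY2, BRAF, MAP2K1 and SPRED1. Among all genes tested, PHLDA1 stood at the 96.8th percentile of mean FPKM, CCND1 at the 93.3rd, DUSP6 at the 78.8th, BRAF at the 47.8th, MAP2K1 at the 41.9th and SPRED1 at the 29.1st.

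BRAF (chromosome 7, 140419127 to 140624564, minus strand, hg19) encodes the RAF kinase at the head of the chain. It read 1.62, 9.39 and 8.52 FPKM in SNHG10 replicates 1 to 3 and 10.2, 6.66 and 7.42 in LacZ replicates 1 to 3. The low value belonged to 1 SNHG10 library, and the groups overlapped. The log2 difference was -0.50 ± 0.54 (SE; 95% interval -1.74 to 0.75; limma adjusted p = 0.932, exact permutation p = 0.8), and without SNHG10 replicate 1 it turned to 0.15 (adjusted p = 0.972). The low value lay in BRAF-201, which spans nearly the whole locus (140434279 to 140624564) and read 0.111 FPKM there against 3.38 to 7.64 in the other 5 libraries. BRAF-204, at the 3′ part of the locus (140419127 to 140482957), read 1.50 FPKM in it, close to the next library, and 1.61 to 4.04 elsewhere. BRAF has a processed pseudogene, so reads may be shared with that copy.

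ARAF, another RAF kinase, was more abundant than BRAF in every library. It read 21.5, 27.5 and 25.7 FPKM in SNHG10 replicates 1 to 3 and 26.4, 32.8 and 40.6 in LacZ replicates 1 to 3, between 2.58 and 13.3 times the level of BRAF in the same library. ARAF did not pass the limma test, with a log2 difference of -0.39 ± 0.21 (adjusted p = 0.907). With its most abundant transcript in place of the sum it was -0.99 (limma adjusted p = 0.287), and without LacZ replicate 3 it was -0.24.

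MAP2K1 (chromosome 15, 66679155 to 66784650, plus strand) encodes MEK1, the kinase that BRAF activates. Its single listed transcript read 7.25, 5.97 and 5.83 FPKM in SNHG10 replicates 1 to 3 and 5.49, 3.68 and 8.69 in LacZ replicates 1 to 3. The LacZ libraries held both the lowest and the highest value, and the groups overlapped. The log2 difference was 0.14 ± 0.34 (95% interval -0.64 to 0.92; limma adjusted p = 0.968, exact permutation p = 0.7), and it was -0.11 without LacZ replicate 2. MAP2K2, which encodes MEK2, was the more abundant MEK in each library, at 5.06 to 13.9 times MAP2K1. It read 43.1, 36.1 and 31.1 FPKM against 27.8, 51.1 and 46.5. MAPK3, which encodes the ERK1 kinase, overlapped as well: its mean was 23.0 ± 5.94 FPKM in the SNHG10 libraries and 23.7 ± 6.99 in the LacZ libraries (SD over 3; exact permutation p = 0.9).

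DUSP6 (chromosome 12, 89741009 to 89747048, minus strand) encodes the cytoplasmic phosphatase that dephosphorylates ERK and is itself induced by ERK. It read 18.5, 16.6 and 14.5 FPKM in SNHG10 replicates 1 to 3 and 19.6, 27.9 and 29.3 in LacZ replicates 1 to 3. All 3 SNHG10 libraries lay under all 3 LacZ libraries, although the highest of the first (18.5) was close to the lowest of the second (19.6). Group means were 16.5 ± 2.00 and 25.6 ± 5.25 FPKM (SD, n = 3 each), and the log2 difference was -0.59 ± 0.22 (95% interval -1.10 to -0.08). It missed the threshold over all genes (limma adjusted p = 0.885; unadjusted p = 0.0295), and the exact permutation p was 0.1, the smallest that 3 libraries against 3 can give. Of the 3 endothelial markers measured, EGFL7 also read lower with SNHG10 probes in each library (7.45 to 8.30 against 14.0 to 26.0 FPKM, limma adjusted p = 0.778). The other 2, ENG and ROBO4, had overlapping groups and log2 differences of 0.04 and 0.23. Any part of EGFL7 in the DUSP6 values was not tested.

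The DUSP6 difference lay in 1 of the 2 listed transcripts. DUSP6-204 (89742849 to 89744948), a short model inside the gene, read 8.12, 3.85 and 5.97 FPKM in SNHG10 replicates 1 to 3 and 10.6, 20.9 and 19.7 in LacZ replicates 1 to 3. Its SNHG10 values were all under its LacZ values, as in 6.06% of all 16618 transcript rows tested. The log2 difference was -1.37 ± 0.39 (95% interval -2.30 to -0.43; limma adjusted p = 0.548 over transcript rows, unadjusted p = 0.0113, exact permutation p = 0.1). The longer DUSP6-201 (89741009 to 89747048) read 10.4, 12.7 and 8.54 against 8.98, 7.00 and 9.65 FPKM, a log2 difference of 0.27 ± 0.28 with overlapping groups (adjusted p = 0.951). DUSP6-204 thus held 43.8%, 23.2% and 41.1% of the DUSP6 sum in SNHG10 replicates 1 to 3, and 54.2%, 74.9% and 67.1% in LacZ replicates 1 to 3. Since DUSP6-204 lies wholly within the span of DUSP6-201, the split of reads between them depends on the authors' estimation, which is not given in the sources used here.

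**Figure D2:**
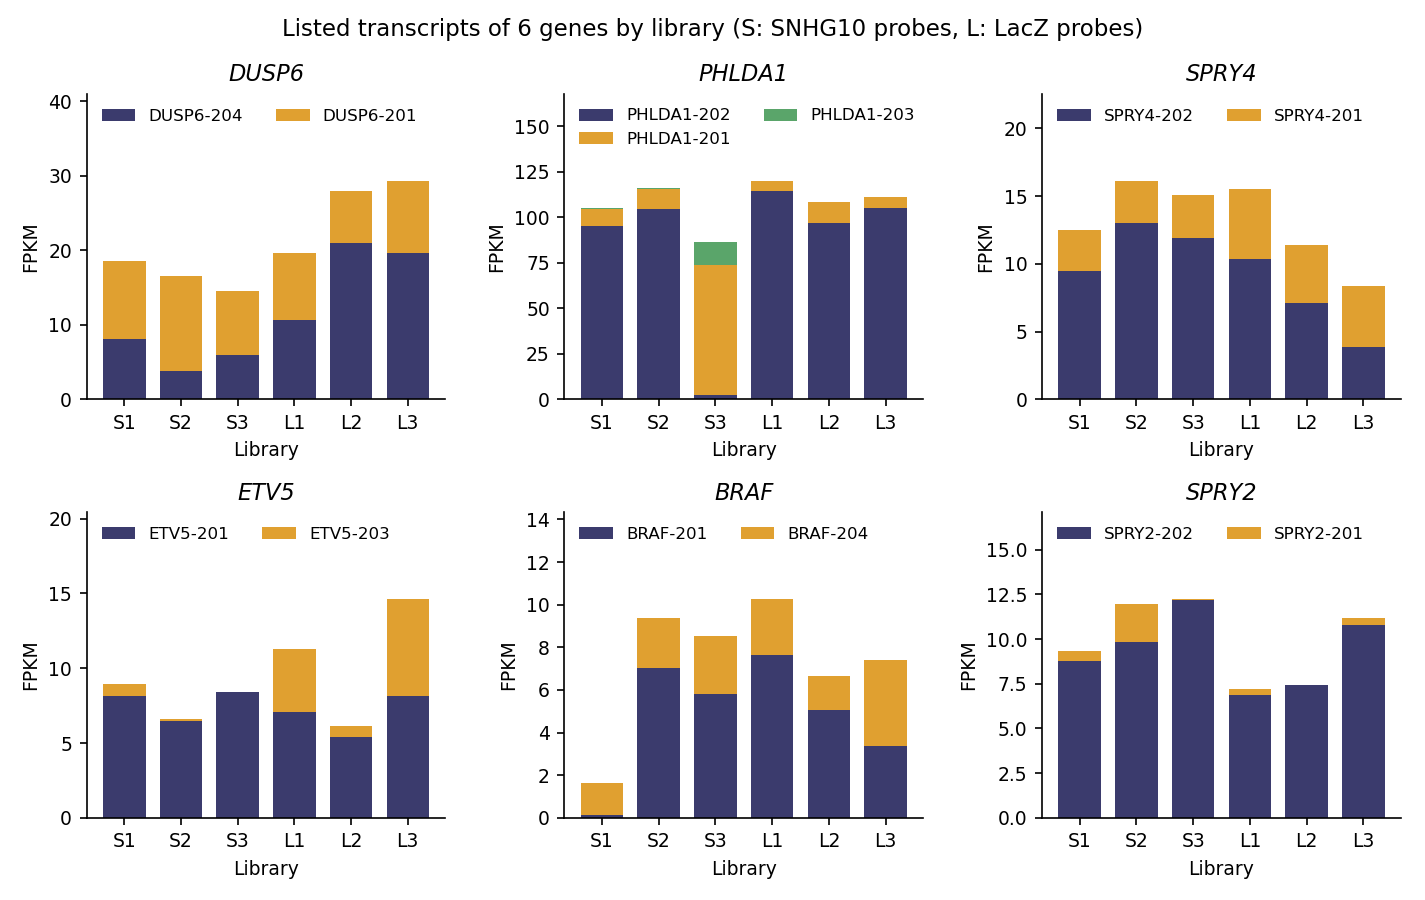
FPKM of each listed transcript, stacked to the gene sum, for 6 genes in the 6 libraries (S1 to S3, SNHG10 probes, and L1 to L3, LacZ probes). DUSP6-204 is smaller in S1 to S3 than in L1 to L3, and in S3 the PHLDA1 sum is made up mostly of PHLDA1-201 where the other 5 libraries show PHLDA1-202.

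The bases before the RefSeq start of DUSP6, PHLDA1 and SPRY4 are shown because the tested transcripts of each of these 3 genes had differences of opposite sign, and because ETV5, one of the 9, is an ETS transcription factor. Each run is the 250 bases up to the start, 5′ to 3′ on the gene's strand, from RefSeq on GRCh38.p14 (not the build of the FPKM files), and capitals mark GGAA, the core that ETS factors recognise, or its complement TTCC.
DUSP6 (chr12:89352502-89352751, minus strand): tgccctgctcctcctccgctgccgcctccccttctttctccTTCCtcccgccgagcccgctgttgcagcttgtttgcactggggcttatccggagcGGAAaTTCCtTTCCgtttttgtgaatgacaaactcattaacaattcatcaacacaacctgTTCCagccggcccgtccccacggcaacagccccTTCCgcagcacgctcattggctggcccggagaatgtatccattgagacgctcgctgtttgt
PHLDA1 (chr12:76031777-76032026, minus strand): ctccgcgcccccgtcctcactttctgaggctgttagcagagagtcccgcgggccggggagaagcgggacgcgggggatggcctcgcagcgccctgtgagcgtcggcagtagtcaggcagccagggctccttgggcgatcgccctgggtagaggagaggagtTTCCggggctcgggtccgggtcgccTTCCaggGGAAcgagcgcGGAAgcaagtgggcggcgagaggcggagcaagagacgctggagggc
SPRY4 (chr5:142324248-142324497, minus strand): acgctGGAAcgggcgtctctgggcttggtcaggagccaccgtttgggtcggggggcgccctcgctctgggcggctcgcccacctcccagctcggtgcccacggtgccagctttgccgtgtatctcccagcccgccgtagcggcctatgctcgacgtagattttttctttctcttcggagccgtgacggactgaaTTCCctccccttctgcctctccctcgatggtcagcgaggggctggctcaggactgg
DUSP6 held 6 such matches, PHLDA1 4 and SPRY4 2. Of the 9 genes 7 matched the table, with 10 start regions in all, and each region held GGAA on one strand or the other, as did 92.7% of all 35116 regions of the same length. The longer form CCGGAA, which contains GGAA, was found in PHLDA1 and in 1 start region of SPRY2, beside 14.5% of all regions. No region of the 7 genes held the AP-1 letters TGACTCA (4.2% of all regions) or the CRE letters TGACGTCA (1.65%), on either strand. These are letter matches and not measured binding. Regions were taken by gene symbol and not by transcript, so a run need not be the start of a tested transcript.

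The Sprouty and SPRED genes encode inhibitors that act on the cascade at the level of RAS and RAF. SPRY2 (chromosome 13, 80910111 to 80915086, minus strand) read 9.34, 12.0 and 12.2 FPKM in SNHG10 replicates 1 to 3 and 7.20, 7.41 and 11.2 in LacZ replicates 1 to 3. The top LacZ value lay among the SNHG10 values, so the groups overlapped. Its log2 difference was 0.36 ± 0.27 (95% interval -0.26 to 0.97; limma adjusted p = 0.928, exact permutation p = 0.2). Leaving out LacZ replicate 3 gave 0.54. SPRY2-202 carried 82.2% to 100% of the sum in each library.

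SPRY4 (chromosome 5, 141689992 to 141704605, minus strand) read 12.5, 16.1 and 15.1 FPKM in SNHG10 replicates 1 to 3 and 15.5, 11.4 and 8.38 in LacZ replicates 1 to 3. The groups overlapped, and the log2 difference was 0.32 ± 0.27 (95% interval -0.30 to 0.94; limma adjusted p = 0.928, exact permutation p = 0.3). It was 0.12 without LacZ replicate 3, 0.53 without LacZ replicate 1 and 0.69 for the most abundant transcript alone. Its transcripts had opposite signs. SPRY4-202 (141692539 to 141704605) read 9.44, 13.0 and 11.9 against 10.3, 7.11 and 3.86 FPKM, and SPRY4-201 (141689992 to 141704566) read 3.09, 3.10 and 3.19 against 5.18, 4.26 and 4.52. The SPRY4-201 groups did not overlap, with a log2 difference of -0.45 ± 0.34 (limma adjusted p = 0.951 over transcript rows, exact permutation p = 0.1). SPRY4-201 made up 19.3% to 24.7% of the SPRY4 sum with SNHG10 probes and 33.4% to 54.0% with LacZ probes.

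SPRED1 (chromosome 15, 38544527 to 38649450, plus strand), which brings the RAS inhibitor neurofibromin to the membrane, had the lowest mean over the 6 libraries among the 9. Its single listed transcript read 4.92, 4.66 and 3.78 FPKM in SNHG10 replicates 1 to 3 and 4.13, 3.25 and 4.20 in LacZ replicates 1 to 3. The libraries overlapped, and the log2 difference was 0.17 ± 0.29 (95% interval -0.51 to 0.84; limma adjusted p = 0.956, exact permutation p = 0.3). Leaving out LacZ replicate 2 gave 0.07. Members of these inhibitor families outside the 9 did not share 1 sign. SPRED2 had a log2 difference of -0.35 ± 0.27, and the phosphatase genes DUSP4, DUSP5 and DUSP7 had 0.19 ± 0.33, -0.09 ± 0.39 and 0.05 ± 0.27. SPRY1 was listed at 0 in SNHG10 replicates 1 and 3 and read 1.97 FPKM in SNHG10 replicate 2, beside 1.64 to 1.70 in the LacZ libraries. None of these passed (limma adjusted p from 0.916 to 0.990).

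**Figure D3:**
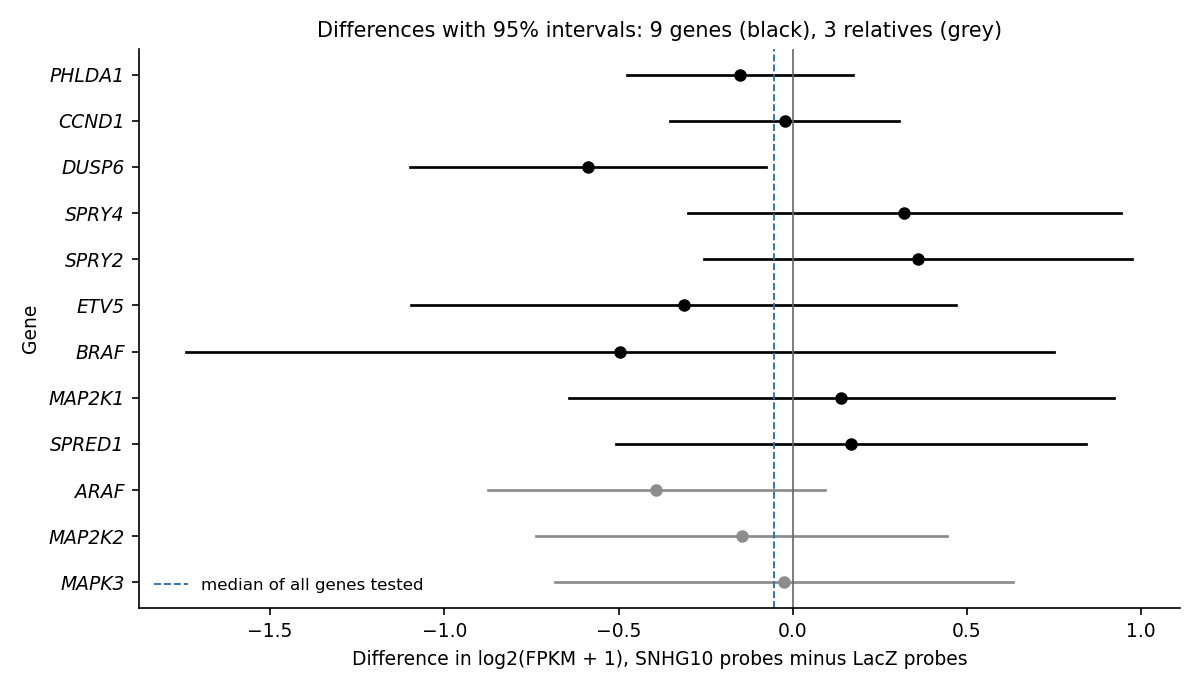
Differences in log2(FPKM + 1), SNHG10 probes minus LacZ probes, with 95% limma intervals for the 9 genes (black) and 3 kinases of the same steps (grey), and a dashed line at the median of all genes tested. The DUSP6 interval, -1.10 to -0.08, is the one among these 12 that does not reach 0, before adjustment for the number of genes tested.

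PHLDA1 (chromosome 12, 76419227 to 76427712, minus strand) encodes a pleckstrin-homology-like protein whose mRNA follows ERK activity. It read 105, 116 and 86.4 FPKM in SNHG10 replicates 1 to 3 and 120, 109 and 111 in LacZ replicates 1 to 3. The lowest value belonged to SNHG10 replicate 3, and the groups overlapped. The log2 difference was -0.15 ± 0.14 (95% interval -0.48 to 0.17; limma adjusted p = 0.928, exact permutation p = 0.4), with -0.04 without SNHG10 replicate 3 and -0.25 without SNHG10 replicate 2. That library also differed from the other 5 in the transcripts listed. PHLDA1-202 (76419227 to 76425384) read 2.57 FPKM in it and 95.3 to 114 elsewhere, while PHLDA1-201 (76419227 to 76427712) read 71.0 FPKM in it and 5.57 to 11.7 elsewhere. PHLDA1-203 (76419227 to 76425556) read 12.9 FPKM in it and at most 0.847 elsewhere. PHLDA1-202 accordingly held 2.98% of the sum in that library and 89.1% to 95.2% in the others. The 3 models share their 3′ end and differ in where they start. When the most abundant transcript stood for the gene, the difference was -1.68 (adjusted p = 0.940), and as a transcript row PHLDA1-202 had -0.07 without SNHG10 replicate 3 (adjusted p = 0.987).

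ETV5 (chromosome 3, 185764097 to 185826901, minus strand) encodes an ETS transcription factor of the PEA3 group that ERK signalling induces. It read 8.97, 6.60 and 8.44 FPKM in SNHG10 replicates 1 to 3 and 11.3, 6.14 and 14.6 in LacZ replicates 1 to 3. The LacZ values lay on both sides of the SNHG10 values. The log2 difference was -0.31 ± 0.34 (95% interval -1.09 to 0.47; limma adjusted p = 0.932, exact permutation p = 0.5), and it was -0.63 without LacZ replicate 2 and -0.07 without LacZ replicate 3. ETV5-201 read 8.13, 6.50 and 8.44 against 7.05, 5.41 and 8.16 FPKM, a log2 difference of 0.15 ± 0.30. The shorter ETV5-203 (185797836 to 185826788), under the filter for testing, read 0.832, 0.101 and 0 against 4.25, 0.727 and 6.43 FPKM. The sign of the gene sum therefore came from ETV5-203.

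CCND1 (chromosome 11, 69455855 to 69469242, plus strand) encodes cyclin D1, which activates CDK4 and CDK6 in G1. It read 66.2, 53.6 and 54.7 FPKM in SNHG10 replicates 1 to 3 and 59.6, 60.8 and 56.3 in LacZ replicates 1 to 3. The LacZ values lay inside the range of the SNHG10 values. Means were 58.2 ± 6.99 and 58.9 ± 2.37 FPKM (SD, n = 3 each), and the log2 difference was -0.02 ± 0.14 (95% interval -0.35 to 0.31; limma adjusted p = 0.992, exact permutation p = 0.8). Its sign turned with median-ratio scaling (0.04). CCND1 was the main D-type cyclin, at 3.19 to 6.29 times CCND3 and 12.7 to 23.4 times CCND2 in the same library. CCND1-203, the second listed transcript, was listed at 0 in 5 libraries and read 1.60 FPKM in LacZ replicate 1.

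Of the 17 listed transcripts of the 9 genes, 13 could be tested and 0 were called by limma, against 0.0903% of all transcript rows (15, and 0 with the replicate number as a block or in any of the leave-one-out runs); 1 had an unadjusted p under 0.05 (DUSP6-204), against 5.66% of all rows. Among the 13, DUSP6-204 and SPRY4-201 had groups that did not overlap, both lower, against 10.5% of all rows in either direction. Adjusted p of the 13 ran from 0.548 to 0.995. With limma without trend, which called 53 transcript rows in all, none of the 13 was called.

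**Figure D4:**
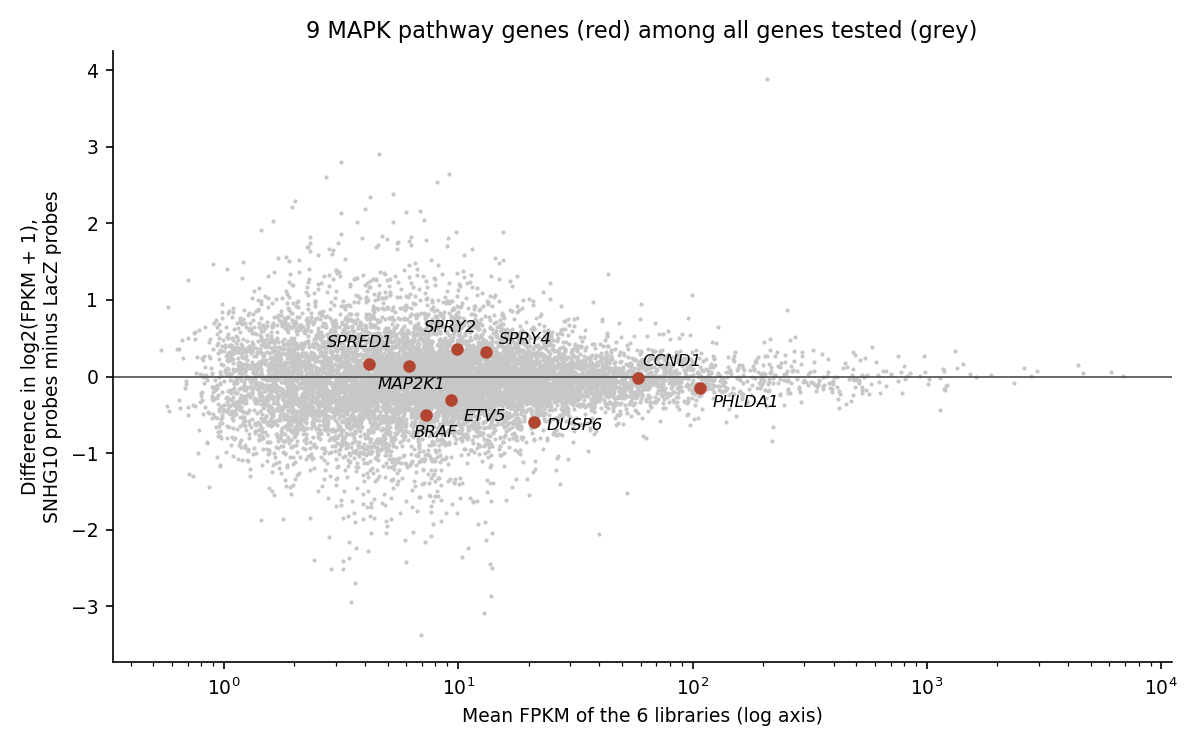
Mean FPKM of the 6 libraries (log axis) against the difference in log2(FPKM + 1), SNHG10 probes minus LacZ probes, for the 10304 genes tested (grey) and the 9 genes described (red, named). The red points lie within the grey cloud, from -0.59 for DUSP6 to 0.36 for SPRY2.

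Other genes of the pathway, read from 5 lists, gave no call either. The count of genes called by limma was 0 in each list, with 0 or 1 genes per list outside the 9 at an unadjusted p under 0.05 (MAPK6, and among cyclin D partners E2F1, named after its values were seen, at -0.81 ± 0.35 on the log2 scale, limma adjusted p = 0.885). In the core list of RAS, RAF, MEK, ERK and their adaptors, 20 genes other than BRAF and MAP2K1 were tested, with 4 positive and 16 negative log2 differences (7 and 13 with median-ratio scaling), with a median of -0.15. All 20 had overlapping groups. Of 14 further ERK output genes, such as DUSP4, ETV4 and FOSL1, 4 were positive and 10 negative, with a median of -0.18, and none separated the probe sets. Of 12 tested kinases and transcription factors that ERK controls, such as MKNK2 and ELK1, 2 were positive and 10 negative, with a median of -0.30. Of 8 cyclin D partners and relatives, 3 were positive and 5 negative, with a median of -0.11. Over all genes tested, 56.7% were negative, or 50.3% with median-ratio scaling.

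Outside the 9, the tested pathway genes whose groups did not overlap were all in the list of cascades beside ERK. Of 12 tested there, MAPK6 and MAPK7 lay higher and MAPK11 lower. Of the 20, 14, 12 and 8 tested in the other lists there were 0, against 11.4% of all genes in either direction. This list was singled out after its values were seen. MAPK6 (ERK3, an atypical MAP kinase) read 7.51, 5.23 and 6.87 FPKM in SNHG10 replicates 1 to 3 and 3.92, 2.39 and 3.04 in LacZ replicates 1 to 3, a log2 difference of 0.88 ± 0.31 (limma adjusted p = 0.885, unadjusted p = 0.0221). MAPK7 (ERK5) read 6.67, 4.49 and 5.30 against 4.42, 4.44 and 1.74 FPKM, a log2 difference of 0.57 ± 0.37 (adjusted p = 0.928), which was 0.24 without LacZ replicate 3, the library at 1.74 FPKM. MAPK11 (p38 beta) read 6.07, 5.39 and 6.47 against 8.96, 8.91 and 9.17 FPKM, a log2 difference of -0.52 ± 0.24 (adjusted p = 0.885). The exact permutation p of 0.1 for each of the 3 followed from the lack of overlap by which they were named. It is the smallest that 3 libraries against 3 can give. MAPK10, MAP2K6, RPS6KA2 and CDKN2A were not analysed here, and RPS6KA5 was under the filter at 0.207 to 0.838 FPKM.

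The 2 genes closest in level to DUSP6 over the 6 libraries were LIF and TOP1, with a root mean square distance of 0.130 and 0.161 in log2(FPKM + 1). LIF, a cytokine, read 16.5, 18.2 and 16.7 FPKM in SNHG10 replicates 1 to 3 and 17.9, 26.3 and 28.2 in LacZ replicates 1 to 3. The closest of the other members to DUSP6 was SPRY4, at 0.890. For PHLDA1 the closest were HDGF (0.0790), CRIM1 (0.0946) and MYADM (0.109), and among the 9 it was CCND1 (0.883). With 10304 genes to choose from, distances of this size are a description only.

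**Figure D5:**
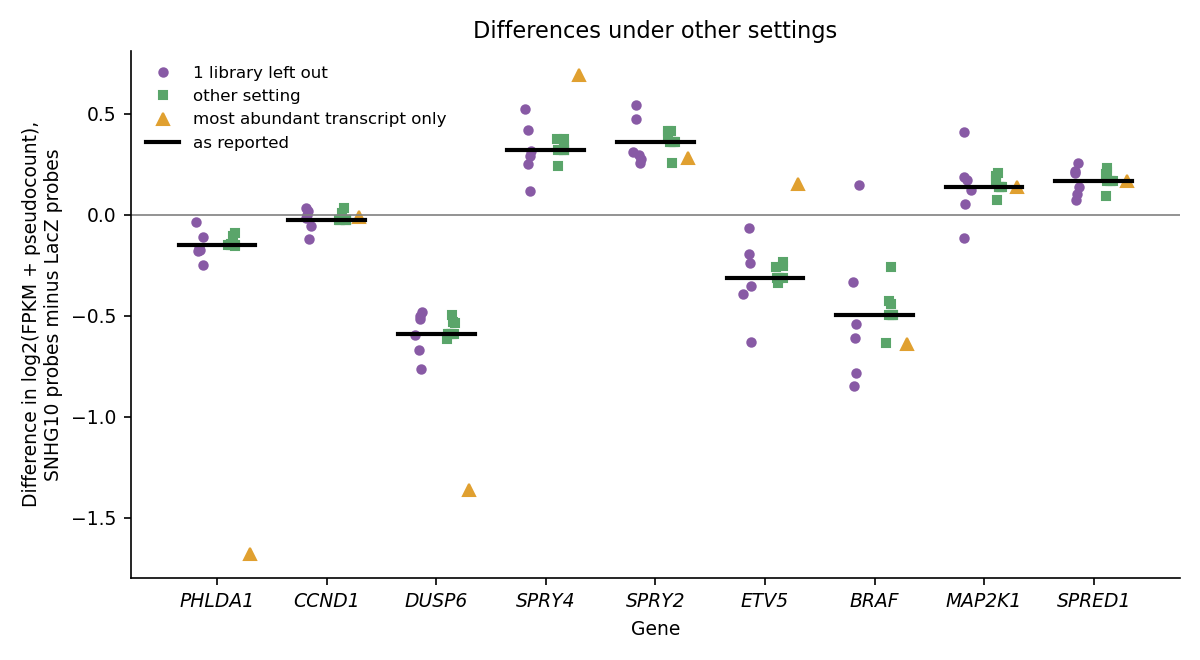
Differences in log2(FPKM + pseudocount), SNHG10 probes minus LacZ probes, for the 9 genes as reported (bars), with 1 library left out (circles), under other settings (squares) and with the most abundant transcript alone (triangles). DUSP6 stays under 0 throughout, BRAF, CCND1, MAP2K1 and ETV5 cross 0 in at least 1 setting, and the triangles of DUSP6 (-1.37) and PHLDA1 (-1.68) lie far from their bars.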

How the data were processed

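RNA was measured in 6 libraries of SK-Hep1 cells, 3 with SNHG10 probes and 3 with LacZ probes, grouped and numbered by the labels. The values the authors deposited are FPKM, 1 value per transcript and library, per the file headers. The submitters' processing notes name Bowtie2 2.1.0 and the build hg19. How FPKM were estimated is not given in the sources used here. Each table held the same 28768 transcripts, and values as low as 5e-06 FPKM show that they do not step by whole reads, so depth is unknown and no counting interval was computed. Zeros may be failed estimates.

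FPKM of a gene's transcripts were added. A filter of 1 FPKM or more in 3 or more libraries left 10304 genes and 16618 transcript rows, which entered limma 3.58.1 (R 4.3.3; lmFit, then eBayes with its trend option) as log2(FPKM + 1), which understates changes of low genes, with Benjamini-Hochberg adjustment over all features. The fit was tested on simulated data. For single genes the exact permutation test (two-sided, 20 assignments, scipy 1.17.1, pandas 2.3.3) is also given. The members and lists were chosen with earlier results of these data known. Genes named were the 9 members, the kinases of their steps (ARAF, MAP2K2, MAPK3), listed genes with groups that did not overlap (up to 4 a list), and the 3 genes nearest in level to DUSP6 and to the most abundant member. Some genes that this rule takes in are not reported here. EGFL7, ENG, ROBO4, the marker sums, CCND2, CCND3, relatives of the inhibitors and the examples of lists were named after their values were seen. Other settings tried were 1 library left out at a time, the replicate number as a block, pseudocounts of 0.1 and 5, no filter and a filter of 5 FPKM, quantile normalization, median-ratio scaling, robust eBayes, no trend, and the most abundant transcript in place of the sum.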

Additional observations from a re-analysis of the deposited data

How the results depend on the processing

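No setting called any of the 9 genes or their transcripts. Over all genes, the counts of 0 higher and 0 lower became 2 and 2 with the most abundant transcript in place of the gene sum, and ranged from 0 to 1 and from 0 to 1 over the leave-one-out runs. With the replicate number as a block, 0 genes and 0 member transcripts were called, and DUSP6 had an unadjusted limma p of 0.0579 (adjusted p = 0.885). Libraries that share a number had deviations from their group means that correlated at only 0.0151, 0.0121 and 0.0161, too little to take the numbers as a pairing (at least 0.1), although each library correlated best with its own number. DUSP6 kept its sign in all 16 alternatives, from -1.37 with the most abundant transcript to -0.48 without LacZ replicate 3, with adjusted p from 0.704 to 0.930. Signs turned in other genes, and not only near 0: as reported, BRAF had -0.50, BRAF-201 -0.64 and ETV5 -0.31. Median-ratio scaling gave 0.0360 for CCND1, 0.0325 for MAPK3 and 0.0382 for CCND1-201, and quantile normalization gave 0.00706, 0.00855 and 0.0152. With the most abundant transcript, ETV5 was 0.151. Over the leave-one-out runs BRAF ranged from -0.849 to 0.146, CCND1 from -0.119 to 0.0319, MAP2K1 (and MAP2K1-201) from -0.114 to 0.411, MAP2K2 from -0.41 to 0.0186, MAPK3 from -0.258 to 0.167, BRAF-201 from -1.15 to 0.274, BRAF-204 from -0.439 to 0.0369 and CCND1-201 from -0.106 to 0.0448. The cause was not tested. Of 496 alternative values, 469 kept their direction and side of the threshold or, for counts, gave an equal or similar count. Taken as similar were the genes with groups that did not overlap, as deposited and with median-ratio scaling: 435 and 586 higher, 743 and 550 lower. SPRED1, MAPK7, BRAF-204, SPRED1-201 and SPRY4-201 were not tested under the filter of 5 FPKM. Of all transcript rows, 15 were called as reported, 53 without the trend option, and 0 with the block or with any library left out. With adjusted p so high, few settings could have changed a call. What low values such as ETV5-203 can show is limited by the unknown depth.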

Other observations

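The summed FPKM of 3 of the 5 pathway lists lay lower in every SNHG10 library than in any LacZ library, an observation made after the values were seen and given with no test. With median-ratio scaling, added after seeing the data, this held for 0 of the 5 lists. Over all genes tested the median log2 difference was -0.05 as deposited and -0.003 with that scaling. As deposited, the core list summed to 529 to 562 FPKM with SNHG10 probes and 579 to 613 with LacZ probes, and the ERK output list to 613 to 694 and 716 to 755. Kinases and transcription factors that ERK controls summed to 262 to 286 and 291 to 341 FPKM. Without the most abundant gene of each list, the sums overlapped in the core list (390 to 397 and 393 to 438) and in the output list (429 to 508 and 495 to 518), while the third stayed apart (176 to 195 and 212 to 249; 178 to 196 and 206 to 239 scaled). These genes were SHC1, an adaptor of receptor tyrosine kinases (134, 164 and 145 FPKM in SNHG10 replicates 1 to 3 and 186, 190 and 158 in LacZ replicates 1 to 3), FOSL1, an AP-1 protein that ERK stabilises (131, 186 and 228 against 243, 260 and 198), and ETS1 (86.1, 91.0 and 75.8 against 79.3, 92.0 and 100.2). SHC1 and FOSL1 each had overlapping groups and missed the threshold (limma adjusted p = 0.885 and 0.907). HRAS, a RAS GTPase, was listed at 0 in SNHG10 replicate 3 and read 17.4 to 22.6 FPKM in the other 5 libraries. It was named after its values were seen, and 10.2% of all genes tested (1056) were at 0 in at least 1 library.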
